A study of Caenorhabditis elegans with 3 samples.

Results

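Basement membrane genes were followed in adult hermaphrodites of Caenorhabditis elegans that carried embryos. The 10 genes were taken by symbol: emb-9 and let-2, which encode type IV collagen, the laminin genes lam-1, lam-2, lam-3 and epi-1, and nid-1, unc-52, cle-1 and ost-1. Each was read by 1 array feature with a value on every array, so the set made up 10 of 15112 single named genes measured. Messenger RNA was measured on 3 DNA microarrays of 2 colours each. Preparations 1, 2 and 3 of hermaphrodites labelled TP10, adult with embryos, gave the RNA of the second channel, and a mixed reference of wild-type RNA filled the first. The labels also carry an unexplained 1 after the word for embryos, and do not say what TP10 stands for. Beyond this they give no genotype, strain or age for TP10. They do not say what was mixed in the reference or whether cultures differed between preparations. The p-values therefore measure only the spread between preparations, which may be technical.

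Basement membranes are thin sheets of secreted protein that underlie epithelia and surround muscle, gonad, intestine and pharynx. Laminin, a trimer of an alpha, a beta and a gamma chain, binds cell-surface receptors and starts the sheet, and type IV collagen forms a second, cross-linked network that gives it tensile strength. Nidogen, perlecan and type XVIII collagen bind or bridge these networks. In the worm, body wall muscle and cells of the somatic gonad make much of the type IV collagen, which is then built into the membranes of other tissues.

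Values are log2 ratios of TP10 over reference, centred on the median of each array. The direction is likely but not settled, since no dye is named. It was taken from the order of the 2 RNAs in the sample descriptions, and an inverted table would exchange "higher" and "lower". Both words are relative to the median gene, so that a change of most genes together is invisible here. In RNA of whole animals, fewer cells of a type and less RNA per cell cannot be told apart. Across 19300 genes and unnamed features Pearson's r between arrays was 0.850 to 0.898, a value over genes and not over independent samples. The spread of all ratios was 0.89, 0.85 and 0.67 (SD, log2) on arrays 1, 2 and 3. All 8 measured markers of germ line and oocytes were higher, at 1.50 to 2.73 log2 in the direction taken, while of 6 early zygotic genes of the embryo 1 was higher and 2 were lower (median -0.19). Among all genes and features 22% were higher and 21.9% lower (limma, adjusted p under 0.05). How far features stood above background is not known here, and with 3 arrays the precision is limited.

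Most of the 10 members had higher ratios of TP10 over reference than the median gene, in the direction taken. The separate list of 11 other matrix proteins did not share this, with 2 higher and 4 lower. At an adjusted p under 0.05 (limma, mean log2 ratio against 0), 7 of the 10 members were higher, 1 was lower and 2 did not pass. Over all 19300 genes and unnamed features, 43.9% passed in either direction, 22% higher and 21.9% lower. The members and the lists below were chosen with earlier results of these data known. Their counts beside these shares are therefore a description and not a test. The 7 higher members were also the 7 above 0 on every array, a property of 33.8% of all genes and features. The median of the members was 0.75 log2, against 0.01 for all genes and features. The higher members encode the main network proteins (type IV collagen, laminin, nidogen and perlecan). The 3 others were cle-1, encoding type XVIII collagen, which was lower, and ost-1, encoding the collagen-binding glycoprotein SPARC, and lam-1, encoding the laminin beta chain, neither of which passed. In limma the variance of a gene is drawn towards that of other genes. With each gene's own variance none of the 10 members passed (one-sample test, lowest adjusted p = 0.0945), although 3 had an unadjusted p under 0.05 there and 9 in limma.

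**Figure D1:**
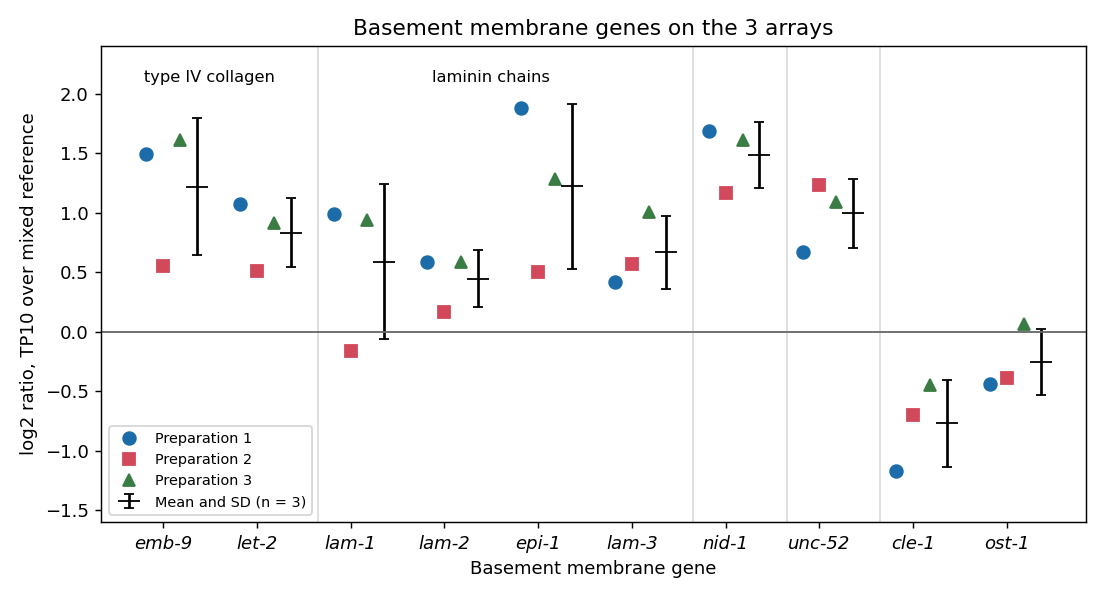
Log2 ratio of TP10 over the mixed reference for the 10 basement membrane genes (x axis, by role), with a coloured point for each preparation and a black bar for the mean and SD (n = 3). Points of 7 genes lie above 0 on all arrays, lam-1 falls to -0.16 in preparation 2, and the 3 points of cle-1 lie between -1.17 and -0.45.

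The type IV collagen trimer is built of EMB-9 chains, the alpha 1 type, and LET-2 chains, the alpha 2 type. The gene emb-9 (K04H4.1) had log2 ratios of 1.49, 0.56 and 1.61 in preparations 1, 2 and 3, and let-2 (F01G12.5) had 1.08, 0.51 and 0.91. Each was above 0 in all preparations, and each was lowest in preparation 2. The mean of emb-9 was 1.22 ± 0.58 (SD, n = 3), or 2.33-fold higher with a 95% interval of 1.70-fold to 3.19-fold (limma, adjusted p = 0.000802). The mean of let-2 was 0.83 ± 0.29 (SD, n = 3), or 1.78-fold higher with an interval of 1.40-fold to 2.27-fold (limma, adjusted p = 0.00164). The RNA of let-2 is alternatively spliced between embryos and later stages, and a ratio from 1 feature does not tell these forms apart.

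On every array emb-9 exceeded let-2, by 0.42, 0.04 and 0.70 log2 in preparations 1, 2 and 3, a mean of 0.39 ± 0.33 (SD, n = 3). With 3 arrays an exact two-sided sign-flip permutation test cannot go below p = 0.25, which this difference reached. Adjusted over the 6 differences between members computed, the exact permutation p was 0.60. The mean difference was only slightly larger than its SD, and in preparation 2 it was close to 0. Without preparation 3 the mean was 0.23.

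Of the laminin chains, the shared beta and gamma chains had the smallest means over the 3 arrays, though in preparation 1 the alpha chain gene lam-3 was lower than either. The gamma chain gene lam-2 (C54D1.5) had 0.58, 0.17 and 0.59 in preparations 1, 2 and 3, a mean of 0.45 ± 0.24 (SD, n = 3) and a 1.36-fold higher level in TP10 (limma, adjusted p = 0.0354). That call ended without preparation 1 (limma, adjusted p = 0.104) or preparation 3 (limma, adjusted p = 0.169) and held without preparation 2 (limma, adjusted p = 0.0338). The beta chain gene lam-1 (W03F8.5) had 0.99, -0.16 and 0.94, so preparations 1 and 3 stood close together and preparation 2 lay on the other side of 0. Its mean was 0.59 ± 0.65 (SD, n = 3), with a 95% interval of 0.10 to 1.08 and an adjusted p of 0.0514 (limma). Without preparation 2 its mean was 0.96 and it passed (limma, adjusted p = 0.000834), while without preparation 1 or 3 it did not (limma, adjusted p = 0.254 and 0.205). The beta chain minus the gamma chain was 0.40, -0.33 and 0.35, a mean of 0.14 ± 0.41, with an exact sign-flip permutation p of 0.50 (n = 3). Preparation 2 decided its size, since the mean was 0.38 without it, against 0.01 without preparation 1 and 0.04 without preparation 3.

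An alpha chain gives each worm laminin its identity, and the genome encodes a pair of alternatives, EPI-1 (alpha B) and LAM-3 (alpha A). The gene epi-1 (K08C7.3) had 1.88, 0.50 and 1.28 in preparations 1, 2 and 3, a mean of 1.22 ± 0.69 (SD, n = 3) and a 2.33-fold higher level (limma, adjusted p = 0.00150). The gene lam-3 (T22A3.8) had 0.42, 0.57 and 1.01, a mean of 0.67 ± 0.31 (SD, n = 3) and a 1.59-fold higher level (limma, adjusted p = 0.00647). Both were above 0 in every preparation, but they did not follow each other. Preparation 1 held the highest value of epi-1 and the lowest of lam-3. The lam-3 call was lost without preparation 3 (limma, adjusted p = 0.0625) and held without preparation 1 or 2 (limma, adjusted p = 0.00563 and 0.0131).

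Set against epi-1 on the same array, lam-3 differed by -1.46, 0.07 and -0.27 log2, a mean of -0.56 ± 0.80 with an exact sign-flip permutation p of 0.50 (n = 3). Preparation 1 supplied most of that difference, and the mean was -0.10 without it and -0.87 without preparation 2. Set against the beta chain gene lam-1, epi-1 was higher on every array, by 0.89, 0.66 and 0.34, a mean of 0.63 ± 0.28 (SD, n = 3). The exact sign-flip permutation p was 0.25, the smallest the 3 arrays allow, and 0.60 over the 6 differences. The lam-3 ratio minus that of lam-1 was -0.57, 0.73 and 0.07, a mean of 0.08 ± 0.65 with an exact permutation p of 0.750 (n = 3). Its sign turned without preparation 2, at -0.25, and without preparation 1 it was 0.40.

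**Figure D2:**
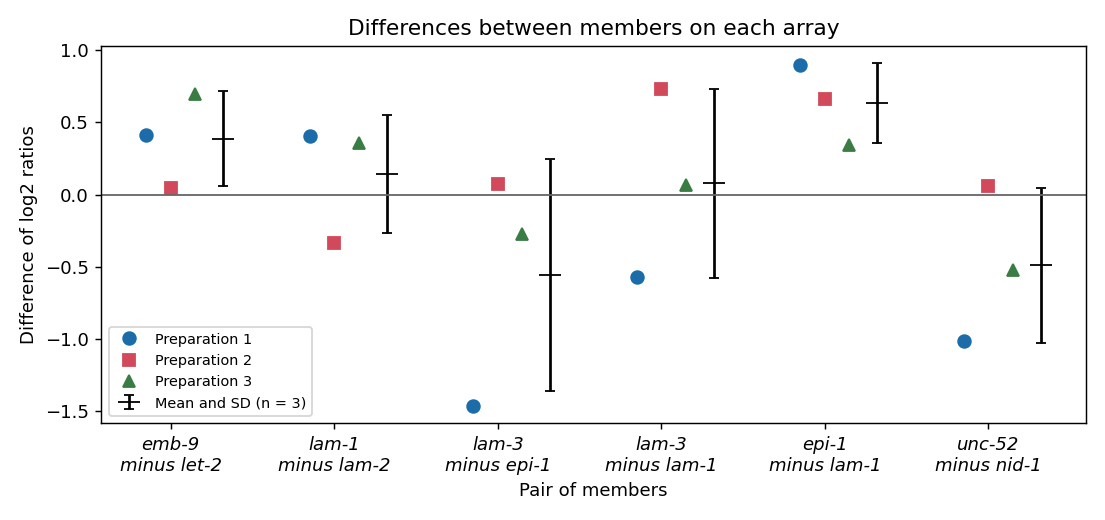
Difference between the log2 ratios of 2 members on the same array (y axis) for the 6 pairs computed (x axis), with a coloured point for each preparation and a black bar for the mean and SD (n = 3). Points of emb-9 minus let-2 and of epi-1 minus lam-1 lie above 0 on every array, and the other 4 pairs have points on either side of 0.

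Nidogen and perlecan stood beside the collagen and alpha chain genes. The nidogen gene nid-1 (F54F3.1), whose product binds laminin and type IV collagen, had 1.68, 1.17 and 1.61 log2 in preparations 1, 2 and 3. All 3 values exceeded 1, and nid-1 held the highest mean of the set, 1.49 ± 0.28 (SD, n = 3). This was 2.80-fold higher, with a 95% interval of 2.20-fold to 3.56-fold (limma, adjusted p = 4.87e-05). Its mean ranked 532nd from the top of the 19300 genes and features, at the 97.2 percentile, and nid-1 was second among the members on each array.

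The perlecan gene unc-52 (ZC101.2), which encodes the heparan sulfate proteoglycan between body wall muscle and the overlying epidermis, had 0.67, 1.23 and 1.09 in preparations 1, 2 and 3. It was the only member with its highest value in preparation 2. The mean was 1.00 ± 0.29 (SD, n = 3), or 1.99-fold higher (limma, adjusted p = 0.000560). Perlecan minus nidogen was -1.01, 0.06 and -0.52, a mean of -0.49 ± 0.54, with an exact sign-flip permutation p of 0.50 (n = 3). That mean was -0.23 without preparation 1 and -0.77 without preparation 2. The unc-52 gene has several spliced forms, which 1 feature does not separate.

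Type XVIII collagen and SPARC stood apart from the rest. The gene cle-1 (C36B1.1), whose product lies in basement membranes and is concentrated in the nervous system, had -1.17, -0.70 and -0.45 in preparations 1, 2 and 3. All 3 values were below 0, as for 33.5% of all genes and features. The mean was -0.77 ± 0.36 (SD, n = 3), 1.70-fold lower in TP10 (limma, adjusted p = 0.00378), and the call held without any 1 preparation (limma, adjusted p at most 0.0173). Of 7 measured neuronal markers, 4 were lower and none was higher (list median -0.96 log2), against 21.9% lower and 22% higher over all genes and features. The part of these markers in the cle-1 value was not tested.

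The gene ost-1 (C44B12.2), which encodes SPARC, a muscle-made glycoprotein that binds type IV collagen, had -0.44, -0.38 and 0.06. Its mean was -0.25 ± 0.28 (SD, n = 3), with a 95% interval of -0.60 to 0.09 and an adjusted p of 0.218 (limma). That interval lies below the intervals of emb-9 (0.76 to 1.67) and let-2 (0.48 to 1.18). Such intervals do not use the pairing of genes within arrays, and the differences of ost-1 from emb-9 and let-2 were not tested. On every array cle-1 was the lowest and ost-1 the second lowest of the 10 members.

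Ordered by mean, the members ran nid-1, epi-1, emb-9, unc-52, let-2, lam-3, lam-1, lam-2, ost-1 and cle-1. Between the first 8, no neighbour exceeded the next by more than the SD of their difference over the arrays. The gaps there were 0.00 to 0.26 log2, with SDs of 0.36 to 0.79. Between lam-2 and ost-1 the gap was 0.70 ± 0.28, and between ost-1 and cle-1 it was 0.51 ± 0.21 (SD, n = 3), each present on all arrays. The order was taken from the same means, so no mean gap could be negative, and these wider gaps were not tested. The 8 members at the top stood at the 78.4 to 97.2 percentile of all means, ost-1 at 29.5 and cle-1 at 12.2.

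**Figure D3:**
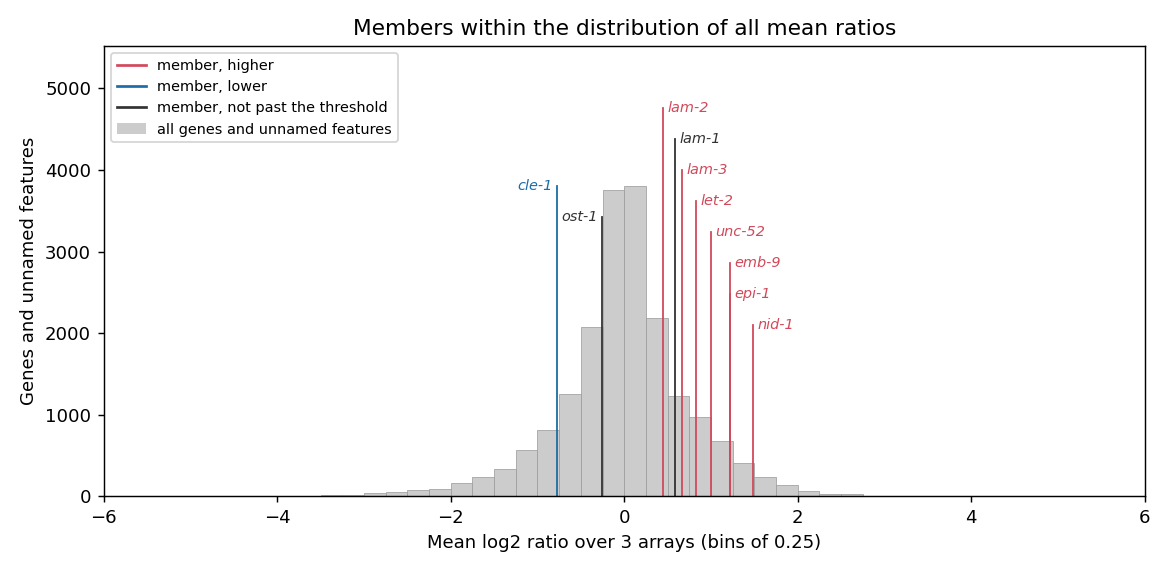
Number of genes and unnamed features (y axis, grey bars) by mean log2 ratio over the 3 arrays (x axis), with a line at the mean of each member (line heights carry no value). The lines of 8 members lie right of the grey peak, from 0.45 for lam-2 to 1.49 for nid-1, while ost-1 and cle-1 lie left of it.

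The preparations did not give the same picture. In preparation 2 the median of the members was 0.51 log2, against 0.83 in preparation 1 and 0.97 in preparation 3. The lowest value of a gene was in preparation 2 for 6 of the 10 members, emb-9, let-2, lam-1, lam-2, epi-1 and nid-1, against 30.0% of all genes and features. The other 4, lam-3, unc-52, cle-1 and ost-1, were lowest in preparation 1 (36.7% of all), and none was lowest in preparation 3 (33.3% of all). The labels date each array separately, so array, preparation and day cannot be told apart.

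Pooled over 6 lists, genes that bind basement membrane or build, modify or cut matrix were called about as often in each direction as any gene. In the pool 15 of 63 measured genes were higher, 14 were lower and 34 did not pass, and their median log2 ratio was 0.00. Over all genes and features 22% were higher and 21.9% lower, so the pooled counts are near the background. The pool joins lists that differed, with 7 higher and 1 lower of 12 glycosaminoglycan enzymes but 0 higher and 5 lower of 12 proteases and inhibitors. Among 12 receptors and membrane proteoglycans, 1 was higher (list median 0.04) and none was lower. It was dgn-1, which encodes dystroglycan, a laminin receptor, with 0.49, 0.41 and 0.51 in preparations 1, 2 and 3 and an adjusted p of 0.0183 (limma). The call was lost without preparation 2 or 3 (limma, adjusted p = 0.0704 and 0.0876).

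The integrin genes, named after their values were seen, did not pass. The beta subunit gene pat-3 had 0.23, 0.74 and 0.29, a mean of 0.42 ± 0.28 (SD, n = 3) that lay just outside the threshold (limma, adjusted p = 0.0504). It passed when the deposited values were used without centring (limma, adjusted p = 0.0494). It also passed with mean-centred, quantile-normalized or scaled values, with array weights and without the most variable genes (limma, adjusted p = 0.00851 to 0.0485). With robust moderation of the variance, or with genes measured on at least 2 arrays kept, it did not (limma, adjusted p = 0.0506 and 0.0536). Without preparation 2 its mean was 0.26 and it did not pass (limma, adjusted p = 0.377). It passed without preparation 1 but not without preparation 3 (limma, adjusted p = 0.0385 and 0.0774). The alpha subunit gene ina-1 had a mean of 0.26 ± 0.18, and pat-2, the alpha subunit of muscle attachment, -0.38 ± 0.40 (SD, n = 3). Without preparation 3, pat-2 was lower at -0.59 (limma, adjusted p = 0.0289), and without preparation 1 its mean was -0.19 (limma, adjusted p = 0.422). Within the cell, 2 of 7 measured genes of the integrin adhesion complex were lower (list median -0.20) and none was higher. The shares over all genes and features were 21.9% lower and 22% higher. The 2 lower genes were unc-97, encoding the adaptor PINCH, at -1.27, -0.79 and -0.37, and pat-6, encoding the actopaxin of the same complex, at -0.98, -0.64 and -0.26 (limma, adjusted p = 0.00434 and 0.0116). The pat-6 call was lost without preparation 1 (limma, adjusted p = 0.0569).

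Of 11 other matrix proteins, 2 were higher and 4 lower (list median -0.14 log2), against 22% higher and 21.9% lower over all genes and features. Fibulin-1, encoded by fbl-1, is a glycoprotein of gonad and other basement membranes, and its gene had -0.73, -1.18 and -1.10 in preparations 1, 2 and 3 (limma, adjusted p = 0.000418). Its mean of -1.0 ± 0.24 (SD, n = 3) was 2.00-fold lower. The netrin gene unc-6, whose laminin-like product guides axons and cells, was lower at -0.72 ± 0.41, and the testican gene test-1 at -0.57 ± 0.19 (limma, adjusted p = 0.00679 and 0.00948). The test-1 call was lost without preparation 2 (limma, adjusted p = 0.0970).

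The other 3 calls were less stable. The peroxidasin gene pxn-2, of the enzyme family that cross-links type IV collagen, had 0.88, 0.28 and 0.22, a mean of 0.46 (limma, adjusted p = 0.0483). Without preparation 1 its mean was 0.25 and without preparation 2 it was 0.55, and in neither case did it pass (limma, adjusted p = 0.229 and 0.0573). The papilin gene mig-6 at 0.45 ± 0.23 and the F-spondin gene spon-1 at -0.46 ± 0.32 (SD, n = 3), both named after their values were seen, each passed in only 1 of the 3 fits that left out a preparation. The agrin gene agr-1, the hemicentin gene him-4, pxn-1, dig-1 and col-99 did not pass.

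Of 9 genes of collagen biosynthesis and secretion, 5 were higher and 2 lower, against 22% higher and 21.9% lower over all genes and features. Their median log2 ratio was 0.42, against 0.01 for all genes and features. The secretion factor genes tmem-131, with 1.11, 1.29 and 1.07 in preparations 1, 2 and 3, and tmem-39, with 1.60, 0.99 and 0.82, were 2.23-fold and 2.20-fold higher (limma, adjusted p = 0.000118 and 0.000462). The protein disulfide isomerase gene pdi-1 was 1.97-fold higher at 0.98 ± 0.23 (SD, n = 3; limma, adjusted p = 0.000478). In contrast phy-2, which encodes a catalytic subunit of collagen prolyl 4-hydroxylase, had -1.06, -2.0 and -1.80, a mean 3.07-fold lower (limma, adjusted p = 9.19e-05). All 3 of its log2 ratios lay below those of its partner catalytic subunit gene dpy-18, at -0.83, -0.59 and -0.27 (limma, adjusted p = 0.0139).

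The genes dpy-18, pdi-2 and pdi-3 were named after their values were seen. Their calls were each lost in 2 of the 3 fits that left out a preparation. pdi-2, which encodes the beta subunit of the same hydroxylase, stood at 0.42 ± 0.15, and pdi-3 at 0.48 ± 0.27 (SD, n = 3). The lysyl hydroxylase gene let-268, known for processing type IV collagen, was also named after its value was seen. It had -0.54, -0.28 and 0.07 and did not pass (limma, adjusted p = 0.245).

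Matrix proteases and their inhibitors were lower in 5 of 12 measured cases and higher in none, with a median of -0.21 log2. Over all genes and features 43.9% passed in either direction and 21.9% were lower, and without preparation 2 only 2 of the 12 passed. The matrix metalloprotease gene zmp-2 had -1.45, -2.26 and -1.46 in preparations 1, 2 and 3, a mean 3.29-fold lower (limma, adjusted p = 5.43e-05). The ADAMTS protease gene adt-2 had -0.82, -0.72 and -0.84, a narrow range, and zmp-4 had -0.62, -0.52 and -0.44 (limma, adjusted p = 0.00102 and 0.0114). The zmp-4 call was lost without preparation 2 (limma, adjusted p = 0.0569). The inhibitor genes cri-2 and timp-1, which encode proteins like tissue inhibitors of metalloproteases, stood at -0.41 ± 0.20 and -0.41 ± 0.04 (SD, n = 3), and neither call held when any 1 preparation was left out. timp-1 was named after its value was seen. The ADAMTS genes of gonad shape and cell migration, gon-1 at -0.16 ± 0.08 and mig-17 at 0.00 ± 0.22, did not pass and were likewise named after their values were seen.

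Enzymes of glycosaminoglycan chains, among them the heparan sulfate carried by perlecan, were mostly higher. Of 12 measured, 7 were higher, 1 was lower and 4 did not pass. The list median was 0.61 log2, and 11 were above 0 on every array. Among all genes and features 22% were higher, 21.9% were lower and 33.8% were above 0 on every array. Values of the chondroitin synthase gene sqv-5 were 1.80, 1.56 and 1.25 in preparations 1, 2 and 3, 2.90-fold higher (limma, adjusted p = 4.09e-05). The UDP-glucose dehydrogenase gene sqv-4 had 2.02, 0.60 and 0.65 (limma, adjusted p = 0.00521), and its mean of 1.09 was 0.63 without preparation 1. Chondroitin as well as heparan sulfate depends on sqv-4, and sqv-5 serves chondroitin, so these examples do not concern perlecan's chains alone.

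Among enzymes of heparan sulfate itself, the epimerase gene hse-5 stood at 0.89 ± 0.32 and the exostosin polymerase gene rib-2 at 0.86 ± 0.21 (SD, n = 3; limma, adjusted p = 0.00124 and 0.000936). The other genes of the whole glycosaminoglycan list that passed, not all of them particular to heparan sulfate, were named after their values were seen. They were sqv-1 at 0.82 ± 0.21, hst-1 at 0.72 ± 0.21, sqv-3 at 0.50 ± 0.20 and, as the 1 lower gene, the 3-O-sulfotransferase gene hst-3.1 at -0.55 ± 0.37. Calls for sqv-3 and hst-3.1 were lost without preparation 2 (limma, adjusted p = 0.108 and 0.247), and that for sqv-3 also without preparation 1 (limma, adjusted p = 0.0550). The germ line and oocyte markers, with a median of 2.14 log2, were higher in the same samples, and their part in these values was not tested.

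**Figure D4:**
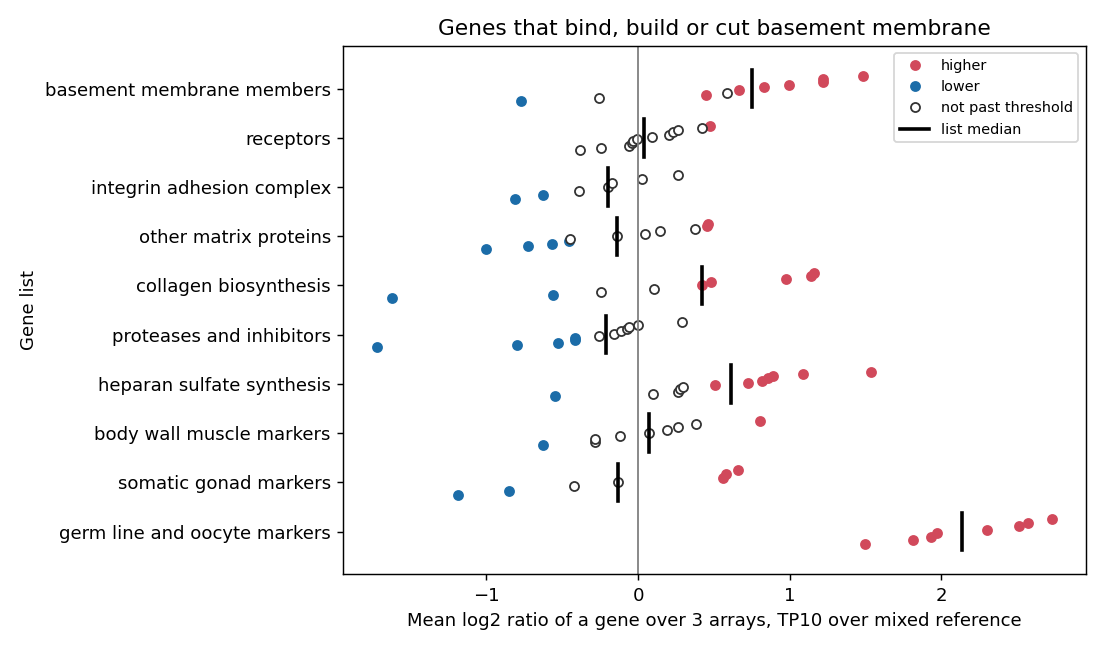
Mean log2 ratio over 3 arrays (x axis) of each measured gene in the basement membrane set, 6 lists of related genes and 3 marker lists (y axis), with filled points for genes past the threshold and a black bar for the list median. The basement membrane median of 0.75 lies right of that of every list drawn but germ line and oocyte markers.

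Markers of the tissues that make basement membrane did not move as one. The counts of these short lists stand beside 22% higher and 21.9% lower over all genes and features. Of 9 measured genes of body wall muscle contraction, 1 was higher and 1 was lower (list median 0.07 log2). They were the troponin T gene mup-2 at 0.81 ± 0.49 and the troponin I gene tni-1 at -0.63 ± 0.31 (SD, n = 3), and the tni-1 call was lost without preparation 2 (limma, adjusted p = 0.105). Of 7 somatic gonad markers, 3 were higher and 2 were lower (list median -0.13), and the largest ratios were those of the POU homeobox gene ceh-18 at -1.19 ± 0.13 and the inositol phosphatase gene ipp-5 at -0.85 ± 0.13. The 3 higher ones, named after their values were seen, were the filamin gene fln-1 at 0.66 ± 0.30 and the innexin genes inx-9 at 0.58 ± 0.62 and inx-8 at 0.56 ± 0.23, and the inx-9 call was lost without preparation 1 (limma, adjusted p = 0.289). Of 6 pharynx muscle markers 2 were lower and none was higher (median -0.03), led by the troponin C gene tnc-2 at -2.92 ± 0.44 and the myosin gene myo-1 at -0.94 ± 0.24. Early zygotic genes of the embryo were led by the GATA factor genes med-1 at -0.87 ± 0.14 and end-3 at 0.58 ± 0.33, and the end-3 call was lost without preparation 1 (limma, adjusted p = 0.0702). Among neuronal markers the largest ratios were those of sbt-1, a gene of neuropeptide processing, at -2.43 ± 0.24 and of the SNARE gene ric-4 at -2.03 ± 0.43, and among germ line markers those of the RNA helicase genes glh-1 at 2.73 ± 0.16 and cgh-1 at 2.57 ± 0.55 (SD, n = 3). The part of any of these tissues in the values of the basement membrane genes was not tested.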

How the data were processed

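The authors deposited log2 ratios; their dyes, background correction, spot filters and normalization are not given in the sources used here. The scale was read from the values: as plain ratios, at least 99.985% per array came out in whole thousandths (tolerance 0.01 of a thousandth). Array medians lay between -0.0087 and 0.0172, so ratios were already centred.

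Features were named from the platform annotation, which gave 1 gene for 15655 of 20000, several for 198 and none for 4147. Of the 15655, 15569 matched RefSeq (WBcel235) by gene identifier and took its current symbol and sequence name. RefSeq coordinates were not used, since the build of the array design is not given in the sources used here. Features with a value on all 3 arrays (19748) were averaged per gene, giving 19300 genes and unnamed features, and each array was centred on its median. Mean ratios were set against 0 in limma 3.58.1 under R 4.3.3 (eBayes, two-sided, Benjamini-Hochberg over all 19300, threshold 0.05). The reference has no replicates here, and its own spread and any dye bias are not in the error. The step was also run on simulated data, which held neither and so cannot show their effect. Differences between members were formed within arrays and given an exact sign-flip test.

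Members and lists were chosen with earlier results of these data known. The text names every member, from each related list up to 4 genes of largest mean past the threshold, and from each marker list the 2 largest. Of the listed genes, those not analysed here were deb-1, zmp-1, sqv-2, sqv-6, hst-3.2, hst-6, lev-11, lag-2, med-2, tbx-37 and, with a missing value, egl-3. Alternatives changed the centring, scaling, averaging, missing values, filter, variance model and preparations used.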

Additional observations from a re-analysis of the deposited data

How the results depend on the processing

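No member changed direction in any alternative. Outside the fits that left out a preparation and the test without moderation, 6 to 9 members passed (5 to 8 higher, 1 lower), against 8. The lowest count came when the 10% of genes with the widest spread were left out, which removed emb-9, lam-1 and epi-1 from the test. lam-1 passed with deposited values (adjusted p = 0.0455), centred on the mean (adjusted p = 0.0445) and quantile-normalized (adjusted p = 0.0392) by limma. Without 1 preparation, 6 to 9 members passed. The other lists gave 28 to 31 genes in the settings that kept all preparations and moderated the variance, against 29. They gave 17 to 26 without 1 preparation, with 17 (10 higher, 7 lower) without preparation 2. Receptors, 1 in the reported test, gave 2 with deposited, mean-centred, quantile-normalized or scaled values, with array weights or without preparation 1, 3 without the most variable genes (2 higher, 1 lower), 1 lower and 0 higher without preparation 3 and 0 without preparation 2. Without preparation 2, other matrix proteins gave 3 against 6, collagen biosynthesis 4 against 7 and proteases 2 against 5. Proteases gave 3 without preparation 3, and the adhesion complex 1 against 2 without preparation 1. With the variance moderated, all genes and features gave 8425 to 9193 calls when all preparations were kept, against 8476, and 6790 to 7811 without 1 preparation. Without moderation of the variance (2 degrees of freedom per gene) the test called 1 gene in all, 0 members and 0 genes of any other list, although 6829 genes and 3 members had an unadjusted p under 0.05. The lowest adjusted p of a member there was 0.0945, for nid-1. Of the 6 differences between members, 2 had 1 sign on every array, against 2 to 5 without 1 preparation. With an array left out only 2 arrays need to share a sign, so that count could not fall. lam-3 minus lam-1 ran from -0.25 to 0.40 and reversed without preparation 2. The cause was not tested. No paired analysis was possible because the study has 1 group, and each array already pairs TP10 with the reference.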
